A study of Mus musculus with 12 samples.

Results

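Oxidative phosphorylation (OXPHOS) was followed through 112 genes, of 18992 genes listed in any of the 3 libraries. The members were every gene whose symbol marked it as a respiratory chain or ATP synthase gene: the 13 protein-coding genes of the mitochondrial genome, and 99 nuclear genes whose symbols begin with *Nduf*, *Cox* and a digit, *Uqcr* or *Atp5*, or are one of the 4 *Sdh* genes. The symbol rule used no measured value. Of the nuclear members, 79 encode structural subunits or their isoforms, and the remaining 20 are assembly factors, chaperones and related genes that carry the same prefixes. The libraries listed 109, 111 and 110 of the members.

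The respiratory chain passes electrons from NADH and succinate to oxygen through complexes I to IV in the inner mitochondrial membrane and pumps protons, and complex V (ATP synthase) uses the proton gradient to make ATP. Complex II is built from nuclear genes alone, whereas complexes I, III, IV and V each combine nuclear subunits, imported from the cytosol, with subunits made inside the mitochondrion from the mitochondrial (mt) genome. In CD8+ T cells, activated effector cells run glycolysis beside respiration, and mitochondrial fitness is widely studied in memory and exhausted cells.

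PD-1+CD44+CD8+ T cells, that is CD8+ T cells carrying the inhibitory receptor PD-1 and the activation marker CD44, were sorted from NZB/W F1 mice, a hybrid strain that develops lupus nephritis spontaneously with age. Single-cell RNA sequencing was performed on cells of the spleen at 12 weeks (12W Spl), the spleen at 28 weeks (28W Spl) and the kidney at 28 weeks (28W Kidney), with no treatment and no engineered allele named in any group. The study's methods describe collagenase digestion and a Percoll gradient for the kidney. The age comparison (28W Spl over 12W Spl) asks how the cells differ once disease has developed, and the organ comparison (28W Kidney over 28W Spl) how cells in the diseased organ differ from those in the spleen.

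The 12W Spl, 28W Spl and 28W Kidney libraries held 6894, 6481 and 7135 cells in 10, 11 and 12 clusters made by the authors, with 34742303, 32023473 and 29937384 transcript molecules counted as unique molecular identifiers (UMIs). The 4 samples of each group, which may be separate preparations or sequencing lanes of 1 (not given in the sources used here), are pooled in its table without a map of cells to samples, so each group is 1 library with no replicate, no p-value was computed, and a difference between libraries cannot be told apart from a difference between sample preparations. How many mice gave cells to a library is not given in the sources used here. Brackets below are 95% exact intervals and cover counting error only. The CD8 T cell marker list summed to between 1188 and 8909 counts per 1000000 UMIs (CPM) in every cluster, and was lowest in B cell-marked clusters. Some clusters also carried markers of other cells. Erythroid markers reached 37158 CPM in cluster 3 of 12W Spl and 40824 CPM in cluster 8 of 28W Spl, B cell markers 20591 CPM in cluster 10 of 28W Spl and 11394 and 25089 CPM in clusters 8 and 12 of 28W Kidney, and kidney tubule markers 4917 CPM in cluster 7 of 28W Kidney. In addition, clusters 2 and 11 of 28W Kidney held 2147 and 1809 CPM of erythroid markers. Myeloid markers reached 10060 CPM in cluster 12 of 28W Kidney and 1463 CPM in cluster 10 of 28W Spl, beside their B cell markers. In 1 cluster of each library, mt-encoded OXPHOS genes took over 5% of UMIs. Results are therefore given over all clusters and over the kept clusters, that is without those with more than 1000 CPM of any such marker list and without the mt-rich ones (8, 8 and 7 clusters kept, with 5526, 5643 and 4665 cells). The cluster with the most proliferation markers was kept in both spleens (cluster 10 of 12W Spl, cluster 6 of 28W Spl) but not in kidney (cluster 11). Summed proliferation markers were 961 CPM in 28W Spl and 1848 CPM in 28W Kidney over all clusters. In the kept clusters they were 977 and 582 CPM, so the organ comparison there does not match cycling cells. Pairs of libraries shared 52 to 66 cell barcodes.

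Nuclear OXPHOS genes took 2.50% of UMIs in 12W Spl (2.50 to 2.51), 2.32% in 28W Spl (2.32 to 2.33) and 2.67% in 28W Kidney (2.66 to 2.67). Nuclear OXPHOS transcripts were thus a slightly smaller part of the spleen library at 28 weeks and a slightly larger part of the kidney library. The log2 ratio of these shares was -0.11 with age (-0.11 to -0.10) and 0.20 between organs (0.19 to 0.20). Counted per cell, the order differed, with 126.2 nuclear OXPHOS UMIs per cell in 12W Spl, 114.9 in 28W Spl and 112.0 in 28W Kidney, beside 5040, 4941 and 4196 UMIs per cell for all genes together. Scaled by the median gene ratio instead of the library total, the age ratio was -0.0083, and with T cell receptor, immunoglobulin, mt-encoded and cytosolic ribosomal protein genes taken out of the total the organ ratio was 0.041, so the size of both differences rests on the scaling. The age ratio was also -0.048 from the deposited means averaged over cells and -0.20 without the cluster with the most proliferation markers in each library. A library share does not separate a change within cells from a change in the number of cells of each cluster.

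The 13 mt-encoded genes took 1.18% of UMIs in 12W Spl, 1.07% in 28W Spl and 1.16% in 28W Kidney. The log2 ratio was -0.15 with age (-0.15 to -0.14) and 0.12 between organs (0.11 to 0.12). Scaled by the median gene ratio the age ratio was -0.048, and the organ ratio was 0.040 with that scaling and -0.041 with the smaller total. Other weightings enlarged them, with -0.29 and 0.77 from the deposited means averaged over cells and -0.24 and 0.22 with clusters weighted equally. The likeness of the library totals did not hold cluster by cluster, as described further on.

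**Figure D1:**
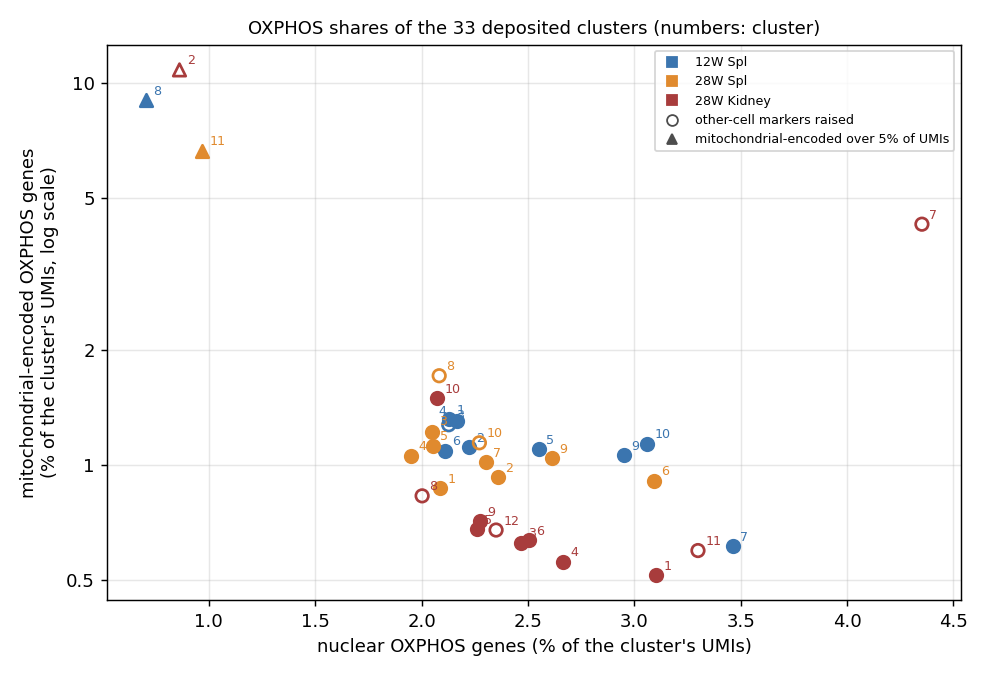
Share of each cluster's UMIs (percent) taken by nuclear OXPHOS genes and by mt-encoded OXPHOS genes, 1 point per cluster, for the 3 libraries. In each library 1 cluster stands apart with a low nuclear share (0.706%, 0.969% and 0.862%) and a high mt-encoded share (8.98%, 6.64% and 10.8%), and the tubule-marked cluster 7 of 28W Kidney is high for both (4.35% and 4.26%).

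With age, nearly all nuclear subunits were slightly lower in 28W Spl, by amounts close to the shift of all genes. Of the 91 nuclear members with at least 10 CPM in either spleen library, 80 were below 0 on the log2 scale and 11 above, with a median of -0.16, beside a median of -0.10 over all 7338 genes tested, of which 4886 were below 0. A gene was counted as past the fold at a log2 ratio of 0.5 or more in either direction, after adding 1 CPM. One nuclear and 1 mt-encoded member were higher past the fold and 0 members were lower, where the background over all genes was 4.42% higher and 4.16% lower. At a log2 ratio of 1 no member was past the fold in either comparison, where the background was 1.57% higher and 0.681% lower with age and 4.7% higher and 1.22% lower between organs. The members past the fold with age were *Atp5k* and *mt-Atp8*, both genes of complex V, of which 13 of 15 tested nuclear genes were below 0.

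By complex, all 7 core subunits of complex I, the subunits that carry its flavin and iron-sulphur clusters, were below 0 with age, with a median of -0.22. The 29 accessory subunits of complex I had a median of -0.18 and 25 were below 0. All 4 complex II genes and all 8 complex III genes were below 0, with medians of -0.17 and -0.19. Complex IV and complex V had medians of -0.10 and -0.12, with 10 of 11 and 13 of 15 tested genes below 0. For assembly factors and related genes, 13 of 17 were below 0 and the median was -0.17. Scaled by the median gene ratio, 65 of 91 nuclear members stayed below 0, among them all 7 complex I core subunits, but only 6 of 11 complex IV and 2 of 4 complex II genes.

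*Atp5k* (chr5:108433244-108434448, GRCm38), which encodes subunit e of ATP synthase, was the nuclear member with the largest age ratio. It stood at 163 CPM (159 to 168) in 12W Spl, 241 CPM (236 to 247) in 28W Spl and 269 CPM (263 to 275) in 28W Kidney, a log2 ratio of 0.56 with age and 0.15 between organs. Across the kept clusters it ranged over 112 to 277 CPM in 12W Spl and 179 to 378 CPM in 28W Spl, so the cluster ranges of the 2 ages overlapped. *Cox17*, a copper chaperone for complex IV, measured 160.1, 208 and 269 CPM in 12W Spl, 28W Spl and 28W Kidney. *Ndufa3*, an accessory subunit of complex I, measured 367, 462 and 513 CPM in the same order. These 3 genes were the highest of the nuclear members with age, at log2 ratios of 0.56, 0.37 and 0.33, and stood against the direction of most others. Next came *Cox7c*, a small complex IV subunit (0.12), *Ndufv3*, an accessory subunit of complex I (0.11), and *Cox7a2l*, a factor that joins complexes III and IV in supercomplexes (0.10).

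At the other end was *Ndufab1*, the mitochondrial acyl carrier protein and a complex I subunit, with 185 CPM in 12W Spl, 135 CPM in 28W Spl and 140.5 CPM in 28W Kidney, a log2 ratio of -0.45 with age. *Atp5g3*, one of 3 genes for the same mature c-ring protein of ATP synthase, measured 839, 644 and 688 CPM in that order, or -0.38 with age. The other 2 c-ring genes, *Atp5g1* and *Atp5g2*, had log2 ratios of -0.29 and -0.12. *Ndufc2*, an accessory subunit of complex I, stood at -0.35, and the complex I assembly factors *Ndufaf1*, *Ndufaf6* and *Ndufaf3* at -0.44, -0.38 and -0.34. These 6 lowest members were all above -0.5, short of the fold.

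Complex II, succinate dehydrogenase, links the chain to the tricarboxylic acid (TCA) cycle and has no mt-encoded subunit. The flavoprotein gene *Sdha* measured 115, 109 and 95.9 CPM in 12W Spl, 28W Spl and 28W Kidney, highest at 12 weeks and lowest in kidney. The iron-sulphur subunit gene *Sdhb* measured 182, 149 and 182 CPM, lowest in 28W Spl. The membrane anchors *Sdhc* and *Sdhd* measured 71.0, 60.1 and 63.5 CPM and 81.0, 75.7 and 78.6 CPM in the same order, and both were also lowest in 28W Spl. The log2 ratios of the 4 genes lay between -0.28 and -0.08 with age. Between organs they were -0.18, 0.28, 0.08 and 0.05 for *Sdha*, *Sdhb*, *Sdhc* and *Sdhd*, and in the kept clusters -0.14, 0.09, -0.03 and -0.02, so that *Sdhc* and *Sdhd* changed sign. The proliferation-highest cluster was kept in 28W Spl and left out in 28W Kidney, and its part in these sign changes was not tested.

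**Figure D2:**
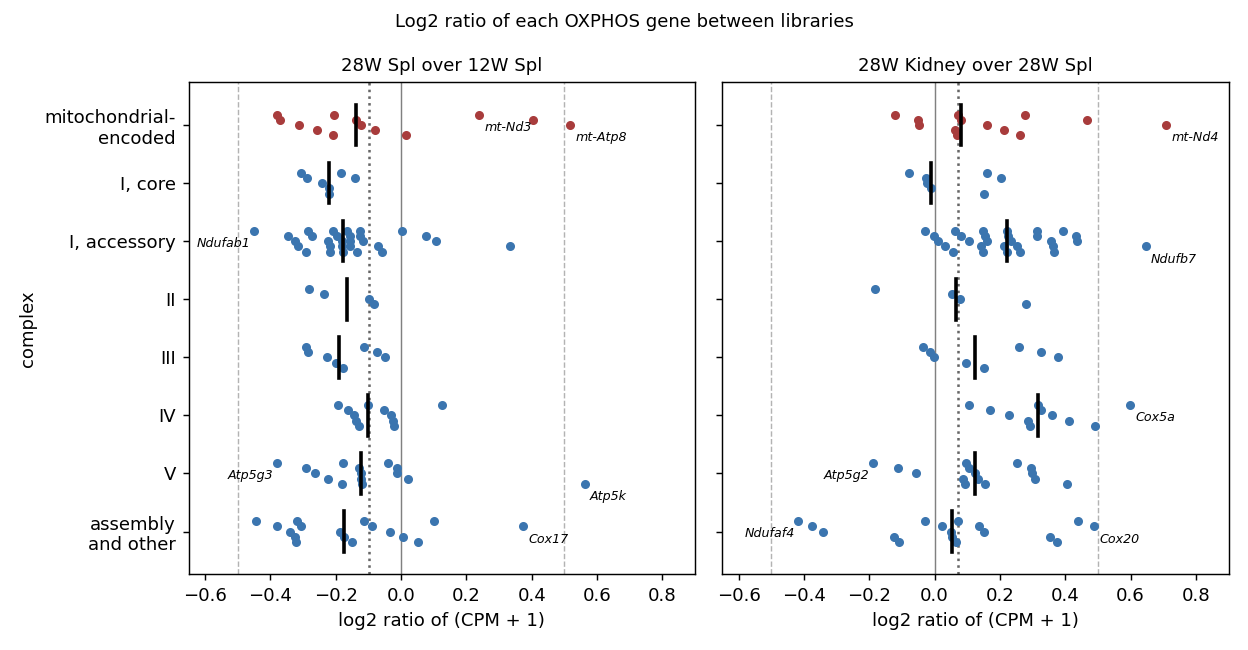
Log2 ratio of each tested OXPHOS member (1 point per gene, pseudocount 1 CPM), grouped by complex, for the age comparison and the organ comparison, over all clusters. Most nuclear points lie below 0 with age (80 of 91) and above 0 between organs (72 of 91), and complex IV is above 0 between organs for all 11 tested genes.

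Between organs, complex IV was the complex with the largest median. All 11 tested nuclear complex IV subunits were higher in 28W Kidney than in 28W Spl, with a median log2 ratio of 0.32, and accessory subunits of complex I followed at 0.22 with 27 of 29 above 0. By contrast, the core subunits of complex I had a median of -0.01, complex II 0.07, and complexes III and V 0.12 each. Over all 91 tested nuclear members the median was 0.15 and 72 were above 0, beside 0.07 and 4617 of 7567 for all genes. Ratios ranged from -0.42 to 0.65. With the smaller total named above, every organ ratio was lower by 0.158 on the log2 scale, and then 42 of 91 nuclear members were above 0, the median was -0.0067, and the members past the fold were *mt-Nd4*, higher, and *Ndufaf4*, *Cox7a2l* and *Ndufaf6*, lower, where the background was 8.58% higher and 9.62% lower. Complex IV kept 10 of 11 genes above 0 under that scaling, with a median of 0.16, whereas complex V kept 5 of 15. Past the fold, 2 nuclear members and 1 mt-encoded member were higher and 0 members were lower, where the background was 12.3% of genes higher and 5.05% lower.

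*Ndufb7* (chr8:83566671-83571626), an accessory subunit of complex I, was the nuclear member highest in kidney relative to spleen, with 205 CPM (199.8 to 209) in 12W Spl, 186 CPM (181 to 191) in 28W Spl and 292 CPM (286 to 298) in 28W Kidney. Its log2 organ ratio was 0.65, and 0.58 over the kept clusters, where it ranged over 133 to 276 CPM in 28W Spl and 204 to 367 CPM in 28W Kidney. *Cox5a* (chr9:57521274-57532426), a nuclear subunit of complex IV, stood at 391 CPM (385 to 398), 342 CPM (336 to 349) and 519 CPM (511 to 527) in the same order, a log2 organ ratio of 0.60, or 0.54 over the kept clusters. For both genes the cluster ranges of spleen and kidney overlapped. Just short of the fold were *Ndufa4*, a subunit of complex IV despite its name, with 478 CPM in 28W Spl and 673 CPM in 28W Kidney, and *Cox20*, a chaperone for the mt-encoded COX2 protein, with 132 CPM and 186 CPM. In the kept clusters *Cox20* passed it, at 0.52, and *Ndufa4* stood at 0.39. *Ndufaf3* and *Ndufv3* followed at 0.44 and 0.44.

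Lowest in kidney relative to spleen were the complex I assembly factor *Ndufaf4* at -0.42 and *Cox7a2l* at -0.38. *Ndufaf4* measured 58.7, 46.7 and 34.7 CPM in 12W Spl, 28W Spl and 28W Kidney and thus had the same order of libraries as *Sdha*. *Cox7a2l* measured 234, 251 and 193 CPM. *Ndufaf6*, *Atp5g2*, *Sdha* and *Ndufaf5*, another complex I assembly factor, lay between -0.34 and -0.13, and *Ndufaf6* stood at -0.58 over the kept clusters with only 10.1 and 7.72 CPM in the whole libraries. In the kept clusters, *Atp5g3* turned from 0.10 to -0.13. Its largest cluster counts were 7848 UMIs in the proliferation-highest cluster 6 of 28W Spl, which was kept, and 4287 UMIs in that of 28W Kidney, cluster 11, which was left out. The part of these 2 clusters in the turn was not tested.

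Promoters are shown for the 3 nuclear genes past the fold over all clusters and for *Uqcr11*, the gene with the widest spread between clusters. Each run is the 250 bases before the gene's start from RefSeq (GRCm38.p6), 5′ to 3′ on the gene's own strand, at chr5:108434400-108434649 (minus strand) for *Atp5k*, chr8:83566508-83566757 (plus strand) for *Ndufb7*, chr9:57520982-57521231 (plus strand) for *Cox5a* and chr10:80406822-80407071 (minus strand) for *Uqcr11*. Capitals mark exact motif matches, namely the letters GCGCATG of nuclear respiratory factor 1 (NRF1) in *Atp5k*, which stand there on both strands and overlap, CCGGAAG of ETS factors in *Ndufb7* and *Uqcr11*, and the Sp1 motif GGGCGG on the opposite strand in *Cox5a*.
Atp5k: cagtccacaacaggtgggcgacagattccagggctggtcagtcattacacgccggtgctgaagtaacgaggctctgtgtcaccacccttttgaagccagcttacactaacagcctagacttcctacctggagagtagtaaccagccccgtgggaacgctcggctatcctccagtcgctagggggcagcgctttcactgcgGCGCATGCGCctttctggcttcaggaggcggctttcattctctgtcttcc
Ndufb7: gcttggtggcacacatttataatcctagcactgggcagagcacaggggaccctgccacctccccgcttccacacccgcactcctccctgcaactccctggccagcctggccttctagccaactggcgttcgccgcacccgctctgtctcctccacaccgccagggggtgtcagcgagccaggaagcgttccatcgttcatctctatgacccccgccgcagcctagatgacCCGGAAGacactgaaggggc
Cox5a: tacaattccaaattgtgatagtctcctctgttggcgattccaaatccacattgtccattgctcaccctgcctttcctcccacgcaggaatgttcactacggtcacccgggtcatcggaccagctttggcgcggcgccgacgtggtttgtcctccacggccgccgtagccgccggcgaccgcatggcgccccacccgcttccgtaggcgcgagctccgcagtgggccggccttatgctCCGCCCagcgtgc
Uqcr11: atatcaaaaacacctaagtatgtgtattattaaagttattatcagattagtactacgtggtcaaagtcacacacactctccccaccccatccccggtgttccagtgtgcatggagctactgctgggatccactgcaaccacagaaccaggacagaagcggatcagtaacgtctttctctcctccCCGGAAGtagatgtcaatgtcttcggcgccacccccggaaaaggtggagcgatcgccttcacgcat
The matches begin 50, 20, 13 and 66 bases before the RefSeq start of the gene in *Atp5k*, *Ndufb7*, *Cox5a* and *Uqcr11*. NRF1 and ETS factors are known regulators of nuclear respiratory genes. Of the 99 nuclear members, 79 had a RefSeq promoter, and the NRF1 motif, searched on both strands, was in 11 of them (13.9%) beside 3.68% of the promoters of 27025 genes. The 11 include 3 of complex V (*Atp5g2*, *Atp5k* and *Atp5l*) and *Sdhb*, and their age ratios ran from -0.33 to 0.56. The ETS motif CCGGAAG was in 17 members (21.5%) beside 7.83%, GGGCGG in 33 (41.8%) beside 35.4%, and the NF-Y motif CCAAT in 34 (43.0%) beside 37.5%. The 27025 genes were not limited to genes expressed in these cells, and the share among expressed genes was not computed. Gene coordinates elsewhere are those of GENCODE, whose gene models of *Atp5k* and *Ndufb7* begin inside these windows. By those models the marked match of *Ndufb7* lies inside the gene, and that of *Atp5k* runs across the gene's start. A match is a run of letters in this window and was not tied to binding.

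For the mt-encoded genes the largest age ratio belonged to *mt-Atp8*, which shares its transcript with *mt-Atp6*. They encode 2 membrane subunits of ATP synthase and lie on 1 mitochondrial mRNA, at chrM:7766-7969 and chrM:7927-8607 (plus strand), where the end of the first reading frame runs into the start of the second. The 43 bases that both genes hold, chrM:7927-7969, are shown because a read inside them belongs to both, with the start codon of *mt-Atp6* in capitals.
mt-Atp8 and mt-Atp6: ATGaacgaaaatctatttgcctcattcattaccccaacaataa
*mt-Atp8* measured 458 CPM (451 to 465) in 12W Spl, 656 CPM (647 to 665) in 28W Spl and 604 CPM (595 to 613) in 28W Kidney. *mt-Atp6* measured 2155 CPM, 1666 CPM and 1609 CPM in the same order. The first was thus higher and the second lower at 28 weeks, with log2 age ratios of 0.52 and -0.37. As a share of all mt-encoded OXPHOS UMIs, *mt-Atp8* took 3.41% to 4.07% in the clusters of 12W Spl and 5.73% to 7.04% in those of 28W Spl, so no cluster of one age reached the other. For *mt-Atp6* the ranges were 17.2% to 19.0% and 15.0% to 17.3%. Both genes together took 22.1%, 21.7% and 19.1% in 12W Spl, 28W Spl and 28W Kidney, so the 2 spleen libraries differed in how these UMIs divided between the genes more than in their sum. Kidney clusters spread over 3.69% to 6.44% for *mt-Atp8*, and the tubule-marked cluster 7 was the lowest. How reads in the shared bases were assigned is not given in the sources used here, and its part in the result was not tested.

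*mt-Atp8* was also the only one of the 112 members for which every kept cluster of 28W Spl (521 to 733 CPM) lay above every kept cluster of 12W Spl (209 to 515 CPM). The background was 0.179% of genes separated in this direction and 0.0687% in the other. Between organs no member was separated in either direction, where the background was 1.05% of genes above and 0.449% below. Clusters of a library share its preparation and are not replicates.

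Other mt-encoded genes were spread on both sides of the all-gene median with age. The complex I genes *mt-Nd6* and *mt-Nd3* were higher in 28W Spl (0.40 and 0.24), and *mt-Nd4l*, *mt-Nd5*, *mt-Nd4*, *mt-Nd1* and *mt-Nd2* were lower (-0.38, -0.31, -0.26, -0.20 and -0.12). *mt-Nd6*, the only member on the opposite strand of the mitochondrial genome, overlaps the end of *mt-Nd5* by 14 bases and measured 14.1, 19.0 and 18.3 CPM in 12W Spl, 28W Spl and 28W Kidney. The cytochrome b gene *mt-Cytb* of complex III measured 1504, 1301 and 1358 CPM. The catalytic complex IV genes *mt-Co1*, *mt-Co2* and *mt-Co3* had age ratios of -0.08, -0.14 and 0.02. In all, 9 of 13 mt-encoded members were below 0 with age, with a median of -0.14.

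The organ comparison of the mt-encoded genes turned direction with the clusters counted. Over all clusters 10 of 13 were higher in 28W Kidney, with a median of 0.08, and *mt-Nd4*, which encodes a proton-pumping subunit of complex I, was past the fold with 299.9 CPM (294 to 306) in 28W Spl and 491 CPM (483 to 499) in 28W Kidney (log2 ratio 0.71). Over the kept clusters *mt-Nd4* measured 285 CPM in 28W Spl and 195 CPM in 28W Kidney, a log2 ratio of -0.55. There all 13 mt-encoded genes were lower in kidney past the fold, from -0.53 for *mt-Co1* to -0.86 for *mt-Cytb*, and the background was 9.67% of genes higher and 7% lower. Of the 90 nuclear members that reached 10 CPM in either library of these clusters, 3 were past the fold, all higher in kidney, namely *Ndufb7*, *Cox5a* and *Cox20*. *Ndufaf6* (-0.58) was just under that filter, with 9.98 and 6.34 CPM, and was not counted. Without the clusters with markers of other cells alone, the mt-rich spleen clusters included, all 13 mt-encoded genes and *Ndufaf6* were lower past the fold. *Ndufb7*, *Cox5a*, *Cox20* and *Ndufv3* were higher, 18 members in all, where the background was 9.19% higher and 7.18% lower. In 28W Kidney that setting kept the same 7 clusters, so the mt-rich cluster 2 was left out there too. The mt-rich clusters were set apart by the mt-encoded share itself, so neither set of clusters is independent of the values compared. With age, *Atp5k* and *mt-Atp8* stayed the 2 members past the fold in the kept clusters, at 0.54 and 0.53, where the background was 4.38% higher and 4.6% lower.

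As a share of UMIs in the kept clusters, mt-encoded genes took 1.11% in 12W Spl, 1.01% in 28W Spl and 0.637% in 28W Kidney, a log2 organ ratio of -0.66, while nuclear genes took 2.55%, 2.34% and 2.61%, a ratio of 0.16. In kidney, 9 of 12 clusters had an mt-encoded share below 0.869%, the lowest of any 28W Spl cluster. The other 3 were the mt-rich cluster 2 (10.8%), the tubule-marked cluster 7 (4.26%) and cluster 10 (1.496%). Cluster 10 was kept, and its share was above that of every kept spleen cluster. Without the mt-rich clusters alone the log2 organ ratio was -0.29, and without the clusters with markers of other cells alone it was -0.73. The latter setting kept the mt-rich cluster of 28W Spl but left out the mt-rich cluster 2 of 28W Kidney, because of its markers of other cells. Kidney tubule markers summed to 0.62 CPM in 28W Spl and 271 CPM in 28W Kidney, B cell markers to 672 and 2287 CPM, and myeloid markers to 49.8 and 362 CPM. Tubule epithelium is known to be rich in mitochondria. Beyond the values without these clusters, the part of such cells or of free RNA in the result was not tested.

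**Figure D3:**
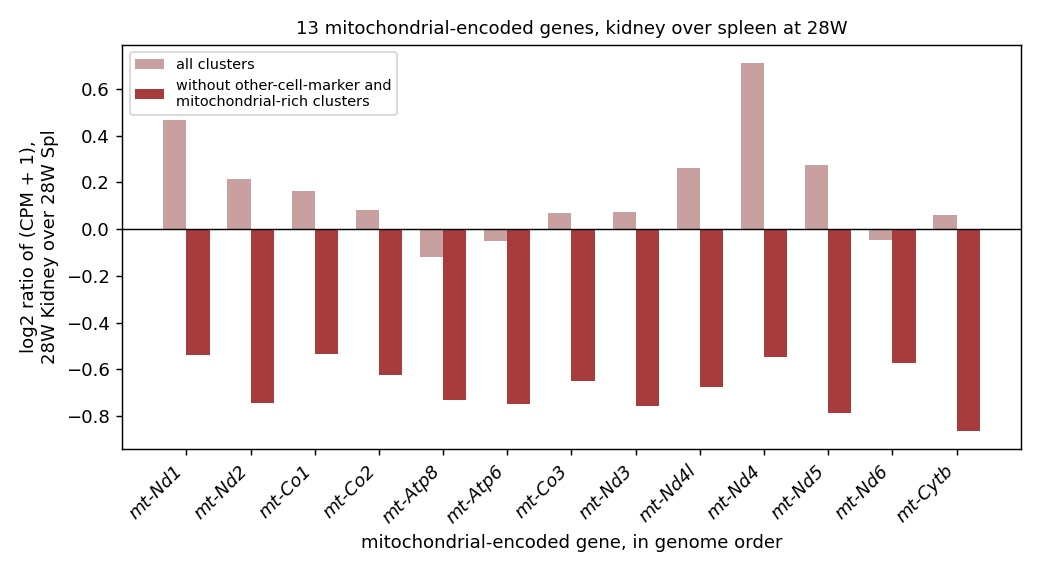
Log2 organ ratio (28W Kidney over 28W Spl, pseudocount 1 CPM) of each of the 13 mt-encoded genes over all clusters and over the kept clusters. Over all clusters 10 of 13 lie above 0, and over the kept clusters all 13 lie between -0.53 and -0.86.

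The balance of nuclear to mt-encoded transcripts within a complex followed the same pattern. In the kept clusters, nuclear UMIs of complex I outnumbered its mt-encoded UMIs 3.27 to 1 in 12W Spl, 3.50 to 1 in 28W Spl and 6.32 to 1 in 28W Kidney. The ratios were 1.73, 1.78 and 3.45 for complex III, 1.22, 1.20 and 2.14 for complex IV, and 3.43, 3.48 and 6.21 for complex V. The 2 spleen libraries were thus close to each other in each complex and the kidney library was higher. Over all clusters the kidney ratios were lower than in its kept clusters, at 2.99, 1.75, 1.29 and 3.76 for complexes I, III, IV and V. The ratios over all clusters were 3.28, 1.66, 1.13 and 3.26 in 28W Spl and 3.04, 1.60, 1.11 and 3.15 in 12W Spl. There kidney was below both spleens for complex I and above both for the other complexes, by far less than in the kept clusters.

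Per cell, the kept kidney clusters held 26.7 mt-encoded OXPHOS UMIs, beside 64.5 in 12W Spl and 54.8 in 28W Spl. Nuclear OXPHOS UMIs per cell were 109.4 in kidney, 148.3 in 12W Spl and 127.3 in 28W Spl. Hence both kinds were fewest per cell in kidney, with the larger gap in the mt-encoded genes. UMIs per cell of all genes together were also fewest in the kept kidney clusters, at 4191, beside 5828 in 12W Spl and 5435 in 28W Spl.

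**Figure D4:**
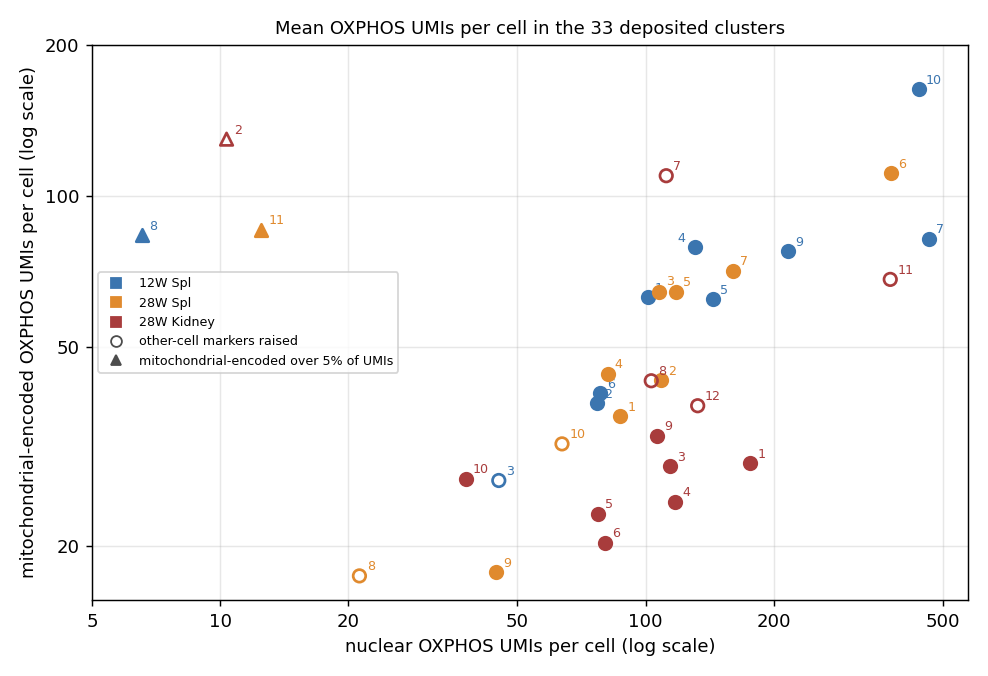
Mean nuclear OXPHOS UMIs per cell against mean mt-encoded OXPHOS UMIs per cell, 1 point per cluster, both axes on a log scale, for the 3 libraries. The mt-rich clusters hold few nuclear UMIs (6.55, 12.5 and 10.3 per cell) and many mt-encoded ones (83.4, 85.5 and 129.6), whereas the other clusters run from 21.3 to 464 nuclear UMIs per cell.

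The mt-rich clusters were cluster 8 of 12W Spl (307 cells), cluster 11 of 28W Spl (215 cells) and cluster 2 of 28W Kidney (806 cells). They held 928, 1288 and 1200 UMIs per cell in all. Their mt-encoded UMIs per cell, at 83.4, 85.5 and 129.6, lay within the range of the other clusters in both spleens (27.0 to 163 and 17.5 to 111) and above it in kidney (20.3 to 110). Their nuclear OXPHOS UMIs per cell lay below those of every other cluster of their library. In the spleens only cluster 10 of 12W Spl and cluster 6 of 28W Spl held more mt-encoded UMIs per cell. The means over all cells were 59.6 in 12W Spl, 52.8 in 28W Spl and 48.6 in 28W Kidney. Hence the high mt-encoded percentage went with few other transcripts, and with mt-encoded UMIs per cell above the library mean, in every library. Beside the other cells of 12W Spl, 80 of the 93 tested nuclear members were lower past the fold in cluster 8 and 7 higher (background 20.2% lower, 60.7% higher), while all 13 mt-encoded genes were higher past the fold. In cluster 11 of 28W Spl 75 of 93 were lower and 7 higher (background 18% lower, 57.9% higher), and in cluster 2 of 28W Kidney 83 of 91 were lower and 2 higher (background 32.8% lower, 36% higher). Clusters were made from these same cells, so these counts describe them and test nothing.

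The clusters with the largest nuclear OXPHOS share had some traits in common and differed in others. In 12W Spl it was cluster 7 (3.46%), which had 13406 UMIs per cell, 9458 CPM of glycolysis genes and 5904 CPM of the migration list (*Xcl1*, *Mif*, *Srm* and *Ccr9*), but the lowest mt-encoded share of its library (0.612%). Of 91 tested nuclear members 53 were higher past the fold there than in the remaining cells and 3 lower (background 27.3% higher, 34.7% lower). In 28W Spl it was cluster 6 (3.09%), the cluster with 3217 CPM of proliferation markers, where 54 members were higher and 1 lower (background 23.5% in each direction). Like cluster 7 of 12W Spl, it was high in UMIs per cell (12208.5), glycolysis genes (7972 CPM) and the migration list (2372 CPM), each the highest of its library. Cycling-marked clusters were also high in the other libraries, with 3.06% in cluster 10 of 12W Spl (proliferation markers 6395 CPM) and 3.30% in cluster 11 of 28W Kidney (9654 CPM). In kidney the tubule-marked cluster 7 led, at 4.35% nuclear and 4.26% mt-encoded, with 69 of 93 nuclear members higher and 1 lower (background 22% higher, 28.5% lower). Among the kept kidney clusters it was cluster 1, at 3.10% nuclear and 0.515% mt-encoded, with 16085 CPM of cytotoxic genes such as *Gzmb* and *Nkg7*, and its mt-encoded share was the lowest of all 33 clusters.

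Individual subunits spread widely between clusters. In 12W Spl the widest was *Uqcr11*, a small complex III subunit, from 21.1 CPM in cluster 8 to 409 CPM in cluster 7, followed by the complex I genes *Ndufa5* and *Ndufa12*. In 28W Spl the widest were *Ndufb2*, *Sdhd* and *Ndufc1*. In 28W Kidney they were *Cox6c*, a complex IV subunit with 149 CPM in cluster 2 and 1594 CPM in cluster 7, *Cox5a* and *Ndufc2*. The low end of *Uqcr11* and *Cox6c* was thus an mt-rich cluster.

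Tissue-specific isoforms were nearly absent. *Cox7a1* and *Cox6a2*, the heart and muscle forms of 2 complex IV subunits, had 18, 24 and 107 UMIs and 12, 50 and 103 UMIs in 12W Spl, 28W Spl and 28W Kidney. In 28W Kidney, 60 of the 107 *Cox7a1* UMIs were in the tubule-marked cluster 7. There 71 of the 103 *Cox6a2* UMIs were in cluster 12, and in 28W Spl 36 of 50 were in cluster 10. Both of these clusters carried B cell and myeloid markers, so the cell type that held the *Cox6a2* UMIs is not settled. In the spleens *Cox7a1* lay mostly in kept clusters, with 11 of 24 UMIs in cluster 6 of 28W Spl and 1 of 18 in the erythroid-marked cluster 3 of 12W Spl, and that cluster held 4 of the 12 *Cox6a2* UMIs at 12 weeks. *Cox6b2*, a testis form, had 55, 64 and 56 UMIs. *Cox4i2*, the lung form, had 0, 0 and 3 UMIs, *Cox8c* 0, 1 and 0, and *Ndufa4l2*, a hypoxia-linked relative of *Ndufa4*, 0, 2 and 0. Many members have processed pseudogenes, and mt-encoded genes have copies in the nuclear genome, so reads may have been split or lost in the counting. Taking 3 UMIs as the limit that a count of 0 allows, the limit was 0.0864 CPM in 12W Spl, 0.0937 CPM in 28W Spl and 0.1002 CPM in 28W Kidney, and the upper ends of the exact Poisson intervals were 0.106, 0.115 and 0.123 CPM. The usual forms *Cox4i1*, *Cox6a1*, *Cox6b1*, *Cox7a2* and *Cox8a* had between 289.9 and 1187 CPM in every library and were all higher in 28W Kidney than in 28W Spl, with organ ratios from 0.17 to 0.41, while their age ratios lay between -0.14 and -0.03, near the median of all genes.

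Related gene lists were set beside the members, and their counts past the fold read against the background of 4.42% of genes higher and 4.16% lower with age, which for lists of this size leaves few or no genes. With age, all 13 TCA cycle genes were below 0 (median -0.25), as were all 10 genes of mitochondrial DNA expression (-0.22) and 75 of 77 mitochondrial ribosome genes (-0.25), whereas 13 glycolysis genes had a median of 0.02. Of all 7338 genes tested, 4886 were below 0, with a median of -0.10. Counts for these lists scaled by the median gene ratio are not given here. Past the fold, 0 of 13 TCA cycle, 0 of 13 glycolysis and 0 of 10 mitochondrial DNA expression genes were called, and 1 mitochondrial ribosome gene, *Mrpl50*, was lower at -0.51. Of 17 import and folding genes 3 were lower, the small intermembrane space proteins *Chchd10* (-0.62) and *Timm10* (-0.59) and the chaperone *Hspd1* (-0.56). Of 17 assembly factors that the symbol rule leaves out, *Sdhaf1* for complex II (-0.56) and *Bcs1l* for complex III (-0.51) were lower. Among 9 regulators of mitochondrial biogenesis *Myc* was lower, with 153 CPM in 12W Spl, 79.3 CPM in 28W Spl and 42.1 CPM in 28W Kidney. Of 8 respiratory chain genes outside the symbol rule 0 passed the fold.

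Between organs, where the background was 12.3% higher and 5.05% lower, 3 of those 8 genes were higher in kidney. These were the ATP synthase inhibitor *Atpif1* (0.68, or 0.29 over the kept clusters), the electron transfer flavoprotein gene *Etfb* (0.67 or 0.44) and the inner membrane carrier *Ucp2* (0.58 or 0.74). None of 13 TCA cycle genes (median 0.09), 13 glycolysis genes (0.00), 8 mitochondrial DNA expression genes (-0.14) and 17 further assembly factors was past the fold. *Myc* (-0.90) and *Pprc1*, a coactivator of respiratory genes (-0.80), were lower, as were the mitochondrial ribosome genes *Mrps18b* (-0.54) and *Mrps6* (-0.50). *Chchd10* was higher over all clusters (0.61) but stood at -0.09 over the kept ones. *Tfam*, which packages mitochondrial DNA and starts its transcription, measured 45.1, 41.2 and 32.9 CPM in 12W Spl, 28W Spl and 28W Kidney. Of 91 cytosolic ribosomal protein genes 18 were lower in kidney past the fold, with a median of -0.41.

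Across the clusters of a library, the nuclear OXPHOS share followed glycolysis and the mitochondrial ribosome more closely in rank than the mt-encoded genes. Spearman's rho with the glycolysis list was 0.95, 0.86 and 0.83 in 12W Spl, 28W Spl and 28W Kidney (10, 11 and 12 clusters), and with the mitochondrial ribosome 0.90, 0.91 and 0.99. With the mt-encoded share it was -0.62, -0.68 and -0.57, and without the mt-rich clusters -0.48, -0.58 and -0.45. The kidney value is one of ranks alone, since Pearson's r without the mt-rich cluster was 0.71 there, with the tubule-marked cluster 7 high for both shares, beside -0.80 and -0.38 in 12W Spl and 28W Spl. With UMIs per cell, over all clusters, Spearman's rho was 0.87, 0.35 and 0.36 and Pearson's r 0.84, 0.62 and 0.37. Clusters of a library share its depth and total, so these values are descriptions. Of 2162 genes outside the rule, those with the highest mean rho over the 3 libraries were *Coa3* (0.935), an assembly factor of complex IV, the mitochondrial protein gene *Mrps36* (0.928), *Tmem258* (0.924), *Minos1* (0.913), a subunit of the complex that shapes the cristae, and the mitochondrial ribosome gene *Mrps21* (0.904).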

How the data were processed

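The sorted T cells were profiled with the 10x Genomics 5′ v2 kit. Groups were taken from the sample titles; for 28W Spl the age entry says 12 weeks, and the title was followed. The authors deposited, for every library, the cluster of each barcode and, per gene and cluster, a mean UMI count (a signal scaled to each library by the authors), a log2 fold change and an adjusted p. The last 2 hold the authors' own comparisons and were not used. The labels name GRCm38, and the submitters' processing notes list Cell Ranger 2.1.1 and R 3.6.1. The annotation release and cell filters are not given in the sources used here. Doublets were not treated, because no matrix of single cells was used.

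Each deposited signal column holds whole multiples of 1 UMI, and 100% of values gave whole UMIs within 0.001. UMIs were summed over clusters and divided by the library total to give CPM, with 29937384 to 34742303 UMIs per library. Levels set across libraries rest on this scaling, since the authors normalized the tables separately. Log2 ratios were taken after adding 1 CPM, so that changes of low genes are understated, over genes that reached 10 CPM in 1 or both libraries, without T cell receptor and immunoglobulin segments. Intervals at 95% are exact Poisson for CPM, exact binomial for shares and exact conditional binomial for ratios of summed UMIs, and cover counting error only. With 1 pooled library per group no test was made. Named genes are all mt-encoded and *Sdh* members, the 6 highest and 6 lowest nuclear members of each comparison, paired isoforms, the 3 widest between clusters in each library, the 5 genes most like the nuclear share across clusters, and the genes of related lists past the fold. Members, lists and rules were chosen with earlier results of these data known, and the limit of 1000 CPM for markers of other cells, the kept clusters and the member counts under other totals were set after seeing the data. Promoters came from RefSeq (GRCm38.p6), and 79 of 99 nuclear members matched. Scripts ran in Python 3.11.15 with numpy 2.4.6, pandas 2.3.3, scipy 1.17.1 and matplotlib 3.10.9 and were tested on simulated data.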

Additional observations from a re-analysis of the deposited data

How the results depend on the processing

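No paired analysis was possible because each group is 1 pooled table without a map of cells to samples, and for the same reason no sample could be left out in turn. The 2 settings that leave out mt-rich clusters together with other clusters were chosen after seeing the data, as was the smaller total for medians and counts of members. All log2 ratios of the nuclear share kept their sign. With age (-0.11) it was -0.074 with T cell receptor, immunoglobulin, mt-encoded and ribosomal protein genes out of the total, -0.0083 scaled by the median gene ratio, -0.048 with deposited means averaged over cells, -0.12 with clusters weighted equally, -0.12 without clusters with markers of other cells, -0.20 without the proliferation-highest clusters, -0.11 for structural subunits and -0.12 in the kept clusters. Between organs (0.20) the same settings gave 0.041, 0.12, 0.19, 0.22, 0.16, 0.27, 0.20 and 0.16, with 0.22 without mt-rich clusters and 0.18 without these and the tubule-marked cluster. The mt-encoded share with age (-0.15) was -0.11, -0.048, -0.29 and -0.24 under the first 4 of these settings, -0.10 without the proliferation-highest clusters, -0.13 without mt-rich clusters, -0.14 in the kept clusters and -0.13 without mt-rich and tubule-marked clusters. Between organs (0.12) it was 0.040 scaled by the median gene ratio, 0.77 with averaged means, 0.22 with equal weights and 0.17 without the proliferation-highest clusters, and it changed sign to -0.041 with the smaller total, -0.73 without clusters with markers of other cells, -0.29 without mt-rich clusters, -0.66 in the kept clusters and -0.65 without mt-rich and tubule-marked clusters. *mt-Nd4* changed sign likewise, to -0.61 without clusters with markers of other cells and -0.55 in the kept clusters. Apart from the clusters removed, the cause was not tested. The median of nuclear members was -0.063 with age (-0.16) scaled by the median gene ratio and -0.13 with the smaller total, and between organs (0.15) it was 0.075 with that scaling, turned to -0.0067 with the smaller total, and was 0.11 without clusters with markers of other cells and 0.10 in the kept clusters. At a log2 ratio of 1 the counts of members past the fold (2 with age, 3 between organs) were 0 and 0, where the background was 1.57% higher and 0.681% lower with age and 4.7% higher and 1.22% lower between organs. At the log2 ratio of 0.5 the organ count was 18 without clusters with markers of other cells (background 9.19% higher and 7.18% lower) and 16 in the kept clusters (9.67% higher and 7% lower). In 28W Kidney both settings left out the same clusters, the mt-rich cluster 2 among them. The log2 range of the nuclear share between clusters (2.62) was 2.55 with mt-encoded genes out of the total and 2.74 for structural subunits, and that of the mt-encoded share (4.39) was 4.55. Of the other values, all for single named members, 283 moved by less than their counting interval and 137 by more. Of these 420 values 46 changed sign, for 23 ratios, 14 of them with the median gene ratio, 16 without clusters with markers of other cells and 16 in the kept clusters, and only *mt-Nd4* had been past the fold.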
